A study of Mus musculus with 8 samples.

Results

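The cytosolic ribosomal protein genes are described here in 2 populations of mouse dorsal root ganglion neurons. Members were chosen by name: symbols that begin with Rpl or Rps and a digit, together with Rplp0, Rplp1, Rplp2 and Rpsa, without pseudogene symbols and without the S6 kinase genes Rps6k. Of 43372 genes in the table, 92 matched the name rule and 83 held at least 10 counts in at least 4 libraries. Sorted by symbol alone, the 83 members comprised 47 genes of the large subunit, 33 of the small subunit and the 3 stalk genes. Paralogs and copies such as Rpl7l1, Rpl37rt and Rps4l were counted under the subunit in their names. All 83 also passed the expression filter of the test, as did 11828 genes in all.

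The neurons came from male and female C57Bl/6 mice aged 3 to 5 weeks, which carried Cre at the Sst locus (Ssttm2.1(cre)Zjh/J, Sst-IRES-Cre) or at the Trpv1 locus (Trpv1tm1(cre)Bbm/J, Trpv1-IRES-Cre). At postnatal day 2 both genotypes had received an intraperitoneal injection of 10 µL of an AAV9 vector with a CAG promoter, a FLEX cassette of eGFP or tdTomato that Cre switches on, and a WPRE element. From each mouse 150 to 250 fluorescent neurons were picked by hand and pooled, and 4 independent samples of each genotype were sequenced, called the Sst and the Trpv1 libraries. The groups are thus defined by where each driver and the virus labelled cells, not by the content of Sst or Trpv1 RNA, and every library is a mean over its picked cells.

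A ribosome consists of a small subunit, which reads the mRNA, and a large subunit, which joins the amino acids. Each protein subunit is present in about equal number per ribosome, so the genes are usually expressed together and at high levels, and much of their control lies in translation: their mRNAs begin with a run of pyrimidines through which the mTOR pathway sets how strongly they are translated. In sensory neurons, ribosomes lie in the cell body and also in the axon, where local translation has been described.

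A short pyrimidine motif was searched on the DNA around the start sites. RefSeq windows (build GRCm38.p6) were matched for 62 of the 83 members. The motif searched was CTTTC, on the strand of the gene, from 25 bases before to 25 bases after the start, and a gene with several starts counted once if any of its windows held it. It was found in 18 members (29.0%), was not in the windows of the other 44, and was found in 2126 of all 27025 genes with a window (7.87%). On both strands it was found in 37.1% of members and 14.4% of all genes. A match is a description of the letters only, and it need not lie at the first base of the mRNA: in the Rpl4 window printed here it ends 12 bases before the start. Genes from both subunits and the stalk serve as examples, each with 20 bases before and 10 bases from the start, 5′ to 3′ on the gene's strand, with CTTTC in capitals.
Rpl4, chr9:64173367-64173396, plus strand: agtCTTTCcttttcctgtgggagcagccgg
Rpl38, chr11:114668560-114668589, plus strand: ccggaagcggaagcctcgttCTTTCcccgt
Rpl35a, chr16:33056462-33056491, plus strand: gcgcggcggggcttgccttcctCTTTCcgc
Rplp2, chr7:141447631-141447660, plus strand: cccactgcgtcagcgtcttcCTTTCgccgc
Rps27, chr3:90213639-90213668, minus strand: acaggatttccgCTTTCgctcCTTTCcggc
Rps3, chr7:99483700-99483729, minus strand: gaacacttgcaagggtcgccgcgctgcgcg
Rpl35a has 3 RefSeq starts, and windows of the same length at the other 2 hold no CTTTC. The Rps3 window is shown because Rps3 had the smallest p of all members, and it holds no CTTTC.

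Ribosomal protein genes took a small share of all counts in both populations. The 83 members held 0.347%, 0.415%, 0.361% and 0.321% of the gene counts in Sst replicates 1 to 4, and 0.344%, 0.281%, 0.249% and 0.403% in Trpv1 replicates 1 to 4. Trpv1 replicates 2 and 3 were the lowest libraries, Sst replicate 2 and Trpv1 replicate 4 the highest, and the groups overlapped. The means were 0.361% ± 0.0397 and 0.319% ± 0.0685 (SD, n = 4 each). Their difference, 0.0419 percentage points, was smaller than the SD between Trpv1 libraries and slightly larger than that between Sst libraries. Leaving out single libraries moved this difference from 0.0185 points (without Trpv1 replicate 3) to 0.0699 points (without Trpv1 replicate 4). In pooled cells, a difference in how many cells express a gene and a difference in RNA per cell cannot be told apart. The ratio of large (stalk included) to small subunit counts was 1.79 ± 0.135 in the Sst and 1.69 ± 0.119 in the Trpv1 libraries. These are shares of reads, so long transcripts weigh more: the median member transcript had 681 bases, against 2976.5 bases for the tested genes.

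The median level of the members moved from library to library, while pairs of members varied in how far they moved together. Each gene's log2 CPM (counts scaled to library size after TMM, a trimmed mean that sets libraries on a common scale, with a prior count of 2) was set against its own mean over the 8 libraries. The median member stood 0.36 above its own mean in Sst replicate 2 and 0.37 above it in Trpv1 replicate 4. It stood 0.32 below it in Trpv1 replicate 2 (−0.32) and 0.16 below it in Trpv1 replicate 3 (−0.16), while the medians of the other 4 libraries lay between −0.04 and 0.07. Over all tested genes, which the scaling itself sets on a common level, the medians lay between 0.01 and 0.08. Trpv1 replicate 4 was the highest of the 8 libraries for 28 members and Sst replicate 2 for 22. Trpv1 replicate 2 was the lowest for 33 members and Trpv1 replicate 3 for 21. Across the 3403 pairs of members, the median correlation of within-group deviations over the 8 libraries was 0.28 (25th to 75th percentile −0.06 to 0.54), and the principal component with the most variance took 43.6% of it for the members and 27.9% for all genes. These correlations share depth and scaling and are given as a description. No pairwise median was taken over all genes, and the component shares come from sets of very unlike size.

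**Figure D1:**
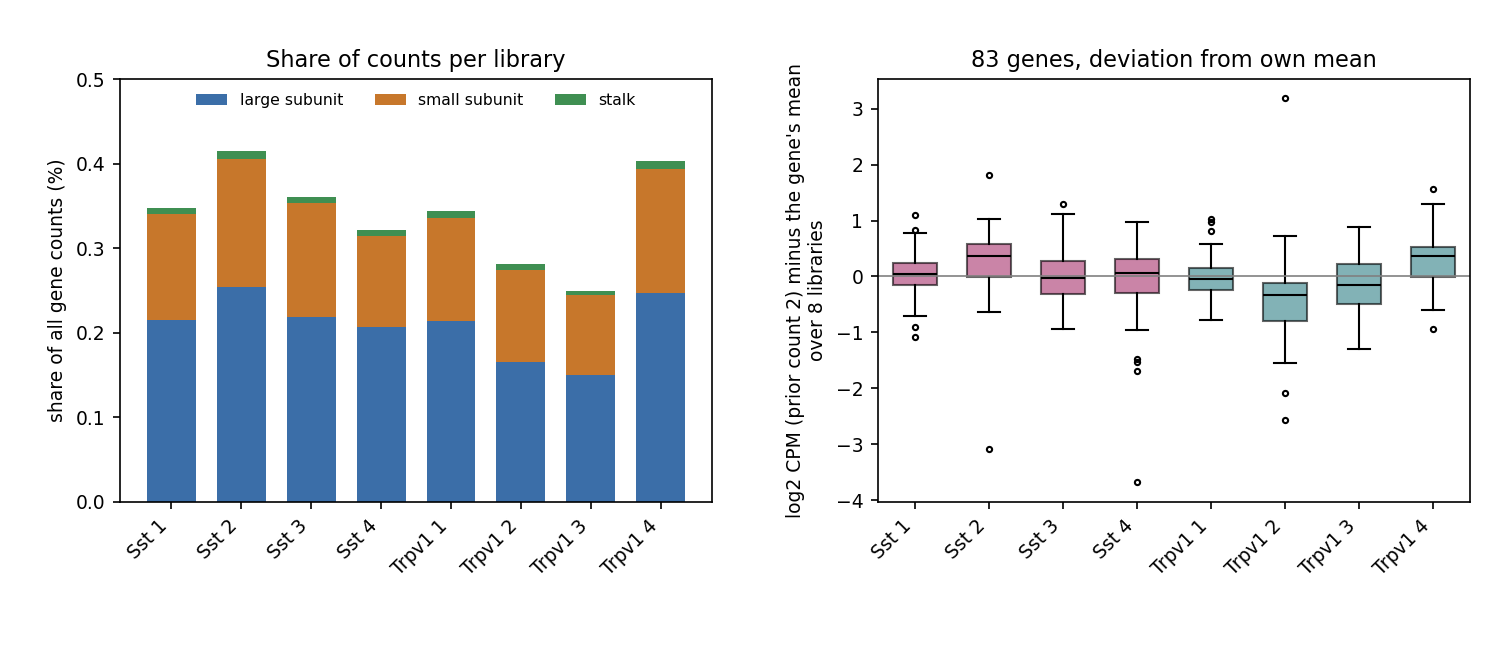
Left, bars of the share of all gene counts (%) held by members of the large subunit, small subunit and stalk in each library. Right, boxes of log2 CPM minus the gene's own mean for the 83 members (line, median; box, 25th to 75th percentile; whiskers, up to 1.5 box lengths; points, members beyond). Sst replicate 2 and Trpv1 replicate 4 sit high in both panels, at 0.415% and 0.403% and at medians of 0.36 and 0.37, and Trpv1 replicate 2 has the lowest median (−0.32).

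Library measures that lie beside these values were as follows. Depth lay between 9021125 and 12153109 counts per Sst library and between 7419027, in Trpv1 replicate 2, and 9568508 counts per Trpv1 library. The mitochondrial rRNA genes mt-Rnr1 and mt-Rnr2 took 18.5% to 31.2% of the counts, and mitochondrially encoded protein genes 3.21% to 9.04%, both highest in Trpv1 replicate 3. Leaving mitochondrially encoded genes out of the total gave mean shares of 0.505% ± 0.0474 (SD, 4 Sst libraries) and 0.455% ± 0.0784 (SD, 4 Trpv1 libraries). Xist was counted in 6 libraries and was at 0 in Trpv1 replicates 1 and 2. All 12 pan-neuronal markers were tested and present in both groups, and together they took 0.6995% to 0.864% of the counts of the Sst and 0.572% to 0.762% of those of the Trpv1 libraries. By edgeR (adjusted p under 0.05) 1 of them was higher in the Sst libraries, Snap25 at 4052 ± 372 and 2000 ± 271 CPM (SD, n = 4 each; of 2 means, the Sst mean always comes first). The 2 called lower were Gap43, a growth cone protein, at 47.1 ± 19.3 and 369 ± 73.4 CPM, and the sodium channel gene Scn9a at 663 ± 68.8 and 1044 ± 213 CPM.

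Per kilobase of transcript, the members spanned from 2.65 to 254 CPM per kb. Levels here are means over the 8 libraries divided by the length of 1 principal transcript per gene in GENCODE M21 (GRCm38), and the median member stood at 46.7 CPM per kb. Rpl31, a large-subunit protein beside the exit tunnel, was highest at 254 CPM per kb (chr1:39367842-39371911, plus strand). Rpl41, which encodes the smallest ribosomal protein, followed at 229 (chr10:128548114-128549305, minus strand) and Rpl38, of the large subunit and known for a part in the translation of Hox mRNAs, at 155. Rpl4 stood at 117 CPM per kb and Rpl10, which joins the large subunit late in its assembly, at 115. At the low end stood Rpl24 (2.65), Rps4l (3.21), Rpl7l1 (4.38), Rpl23a (5.64) and Rpl37rt (8.65). The value of Rps20, 15.4 CPM per kb, rests on a principal transcript of 3706 bases, the longest among the members.

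The abundant genes did not separate the populations. Rpl31 stood at 145, 149.99, 100 and 177 CPM in Sst replicates 1 to 4 and at 99.96, 68.8, 134 and 115 CPM in Trpv1 replicates 1 to 4. Its lowest Sst library lay below 2 of the Trpv1 libraries, and the log2 fold change, Sst over Trpv1, was 0.45 (SE 0.266, edgeR adjusted p = 0.355). Rpl4, whose long extension lines the exit tunnel, stood at 188, 207, 176 and 192 CPM in Sst replicates 1 to 4 and at 161, 159.7, 138 and 219.8 CPM in Trpv1 replicates 1 to 4. Trpv1 replicate 4 was the highest of all 8, and the other 3 Trpv1 libraries lay below every Sst library. Its log2 fold change of 0.17 had the smallest SE of the members, 0.224 (95% interval −0.30 to 0.63, edgeR adjusted p = 0.739). Rpl38 stood at 33.1, 32.05, 44.95 and 59.1 CPM in Sst replicates 1 to 4 and at 54.0, 37.3, 77.0 and 90.1 CPM in Trpv1 replicates 1 to 4, a log2 fold change of −0.61 (edgeR adjusted p = 0.341), with overlapping groups. Rpl41 and Rpl10 had log2 fold changes of −0.21 and 0.27.

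No ribosomal protein gene passed the test between the populations. Of the 83 members 0 were higher and 0 lower in the Sst libraries (edgeR quasi-likelihood F test, Benjamini-Hochberg adjusted p under 0.05), where 6.35% of the 11828 tested genes were called, 3.04% higher and 3.31% lower. DESeq2 and limma voom also called 0 members, against 8.01% and 5.11% of genes. At an unadjusted p under 0.05, edgeR had 5 members (6.02%), 3 higher and 2 lower, against 20.5% of all genes, 10.3% higher and 10.1% lower. DESeq2 had 4 such members and voom 3, against 18.4% and 18.6% of genes. The smallest adjusted p among the members was 0.114, for Rps3.

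The fold changes of the members lay close to 0 and were better determined than those of the typical gene. The median log2 fold change was 0.09 (25th to 75th percentile −0.15 to 0.39), against 0.01 over all genes (−0.53 to 0.53). At the extremes stood Rpl7l1 with −1.92 and Rps4l with 1.36, both of them scarce paralogs. Values above 0 were found for 50 of 83 members (60.2%), against 50.4% of all genes. The median SE was 0.40, against 0.56 for all genes, beside a median level of 34.5 CPM for members and 15.9 CPM for all genes. For 28 members (33.7%) the 95% interval lay within 2-fold either way, as for 17.1% of all genes. For the remaining 55 members a 2-fold difference in at least 1 direction lay inside the interval, so these data do not show that their levels were equal.

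**Figure D2:**
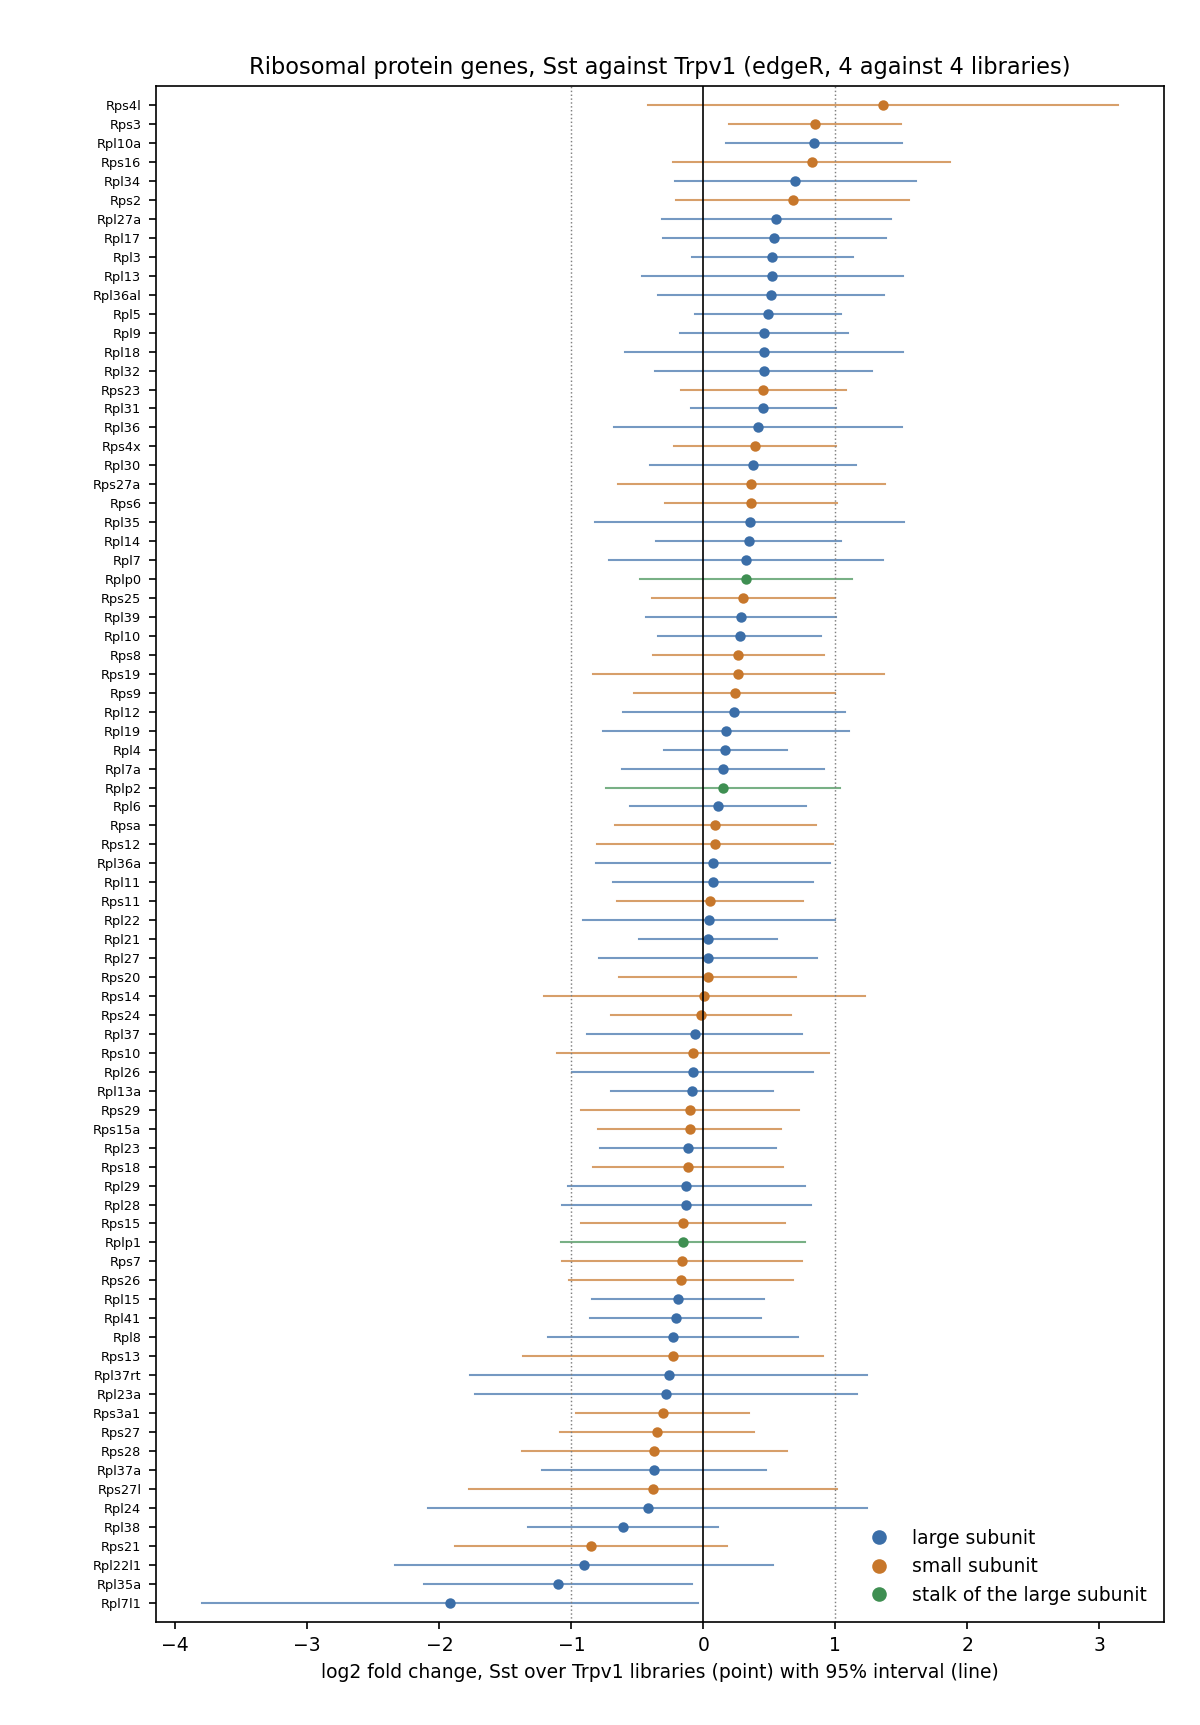
Log2 fold change, Sst over Trpv1 libraries, of 80 members (points, coloured by subunit) with 95% intervals (lines), from edgeR with 4 against 4 libraries. Points run from −1.92 (Rpl7l1) to 1.36 (Rps4l) around a median of 0.09, and the intervals of 4 of the genes drawn leave out 0 before adjustment.

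The subunits gave similar values. The 47 large-subunit genes had a median log2 fold change of 0.15, with 30 above 0, and the 33 small-subunit genes a median of 0.03, with 18 above 0. Rplp0, which anchors the stalk of the large subunit, stood at 26.2, 42.9, 33.6 and 34.7 CPM in Sst replicates 1 to 4 and at 33.2, 24.4, 17.1 and 33.9 CPM in Trpv1 replicates 1 to 4 (log2 fold change 0.32, SE 0.389, edgeR adjusted p = 0.707). Rplp1 and Rplp2 encode the acidic stalk proteins that recruit elongation factors. Rplp1 stood at 21.7 ± 8.15 and 23.7 ± 6.55 CPM (−0.15) and Rplp2 at 23.2 ± 4.83 and 20.9 ± 5.45 CPM (0.15; SD, n = 4 each), both with an edgeR adjusted p of 0.891. The groups overlapped for all 3 stalk genes, as they did for most genes (11.1% of all genes had no overlap). Some members are also known outside the ribosome, and were picked out for those roles with their values in view. Rpl5 and Rpl11, which with the 5S rRNA bind the p53 regulator Mdm2, had log2 fold changes of 0.49 and 0.07. Rps6, the target of the S6 kinases, stood at 73.8 ± 16.0 and 57.7 ± 20.1 CPM (0.36). Rpsa, also known as a laminin receptor, stood at 50.8 ± 22.03 and 47.4 ± 18.5 CPM (0.09).

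The members nearest to a call were picked out after their values were seen. Rps3, a small-subunit protein at the mRNA entry channel, stood at 81.0, 90.5, 89.4 and 111 CPM in Sst replicates 1 to 4 and at 45.01, 47.3, 30.2 and 82.997 CPM in Trpv1 replicates 1 to 4. Trpv1 replicates 1 to 3 lay below every Sst library and Trpv1 replicate 4 among them, and the log2 fold change was 0.85 (SE 0.315, edgeR adjusted p = 0.114). Rpl10a, of the mobile stalk through which spent tRNA leaves, stood at 67.6, 70.2, 81.0 and 77.3 CPM in Sst replicates 1 to 4 and at 31.5, 31.1, 38.1 and 64.5 CPM in Trpv1 replicates 1 to 4. The groups did not overlap, by a narrow margin to Trpv1 replicate 4 (log2 fold change 0.84, SE 0.323, edgeR adjusted p = 0.130).

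In the other direction stood Rpl35a and Rpl7l1. Rpl35a, a large-subunit protein whose human counterpart is among the Diamond-Blackfan anaemia genes, stood at 18.5, 15.8, 11.2 and 10.2 CPM in Sst replicates 1 to 4 and at 19.97, 25.4, 16.2 and 55.8 CPM in Trpv1 replicates 1 to 4. Its Trpv1 mean rests largely on Trpv1 replicate 4 and the groups overlapped (log2 fold change −1.10, SE 0.490, edgeR adjusted p = 0.201). Rpl7l1, a paralog of Rpl7, stood at 4.58, 0.11, 4.45 and 0 CPM in Sst replicates 1 to 4 and at 3.31, 24.4, 4.44 and 4.56 CPM in Trpv1 replicates 1 to 4. Trpv1 replicate 2 alone stood high, and 2 Sst libraries held 1 and 0 counts (log2 fold change −1.92, SE 0.912, edgeR adjusted p = 0.233). Without Trpv1 replicate 2 the log2 fold change was −0.80 (edgeR adjusted p = 0.718).

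Groups that do not overlap were rare among the members. This held for 3 of 83 (3.61%), all higher in the Sst libraries, where 11.1% of all genes had no overlap, 5.43% higher and 5.71% lower. Besides Rpl10a these were Rpl9 and Rps2. Rpl9 stood at 58.6, 66.7, 62.6 and 67.5 CPM in Sst replicates 1 to 4 and at 54.9, 37.6, 40.1 and 51.9 CPM in Trpv1 replicates 1 to 4 (log2 fold change 0.46, edgeR adjusted p = 0.430). Rps2, which lies with Rps3 at the mRNA entry channel, stood at 29.5, 29.8, 35.9 and 24.8 CPM in Sst replicates 1 to 4 and at 21.7, 9.59, 19.4 and 23.3 CPM in Trpv1 replicates 1 to 4 (0.68, edgeR adjusted p = 0.398). For both genes the nearest libraries of the groups lay within a few CPM of each other.

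**Figure D3:**
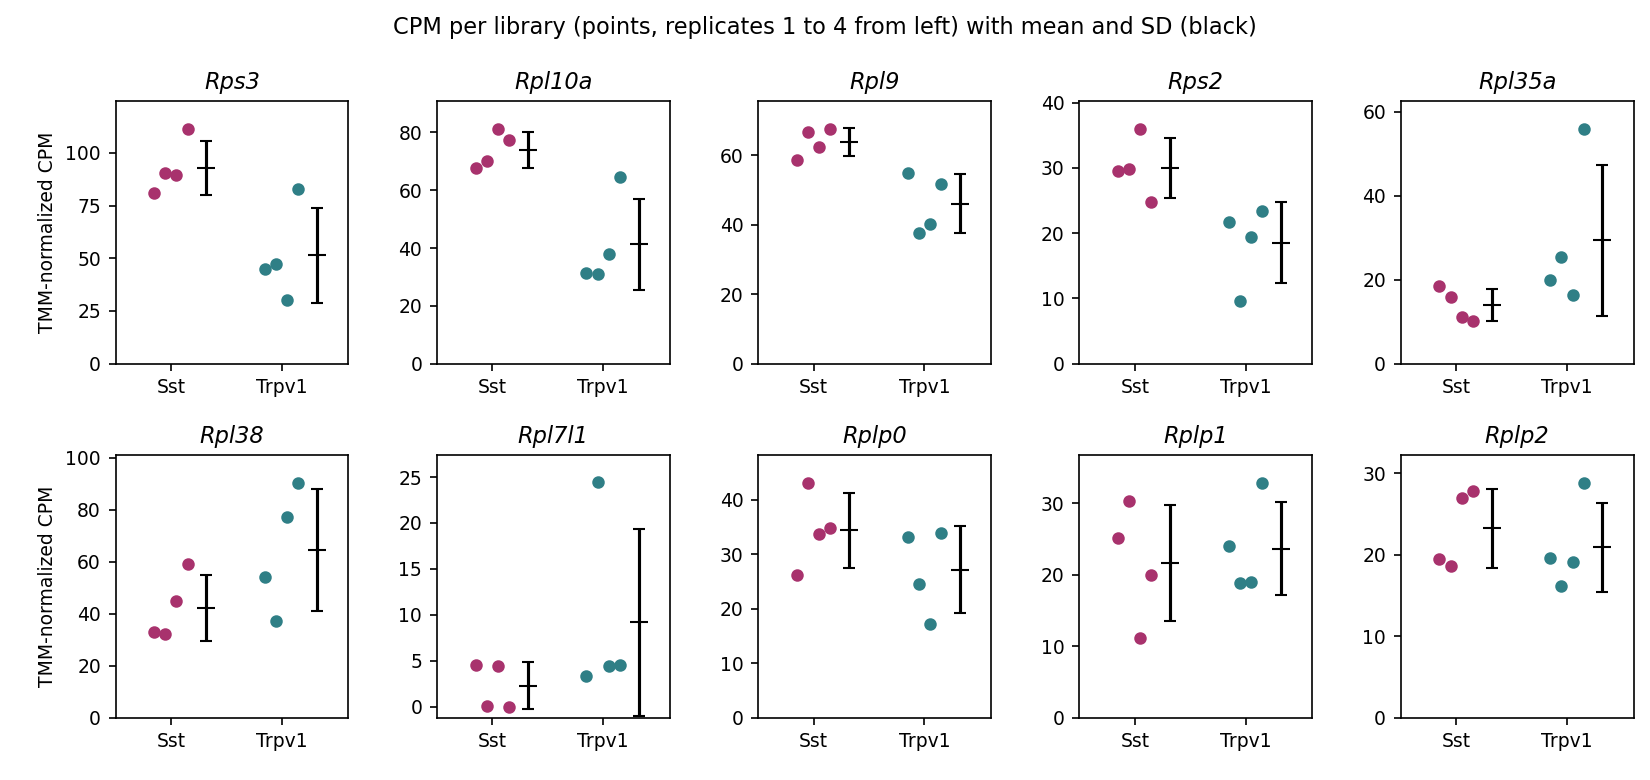
TMM-normalized CPM of 10 members in each library (points, replicates 1 to 4 from the left in each group) with group mean and SD (black, n = 4 each), on linear axes. Trpv1 replicate 4 is the highest Trpv1 library for Rps3, Rpl10a, Rpl35a and Rpl38, and Trpv1 replicate 2 stands at 24.4 CPM for Rpl7l1.

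The values of the higher members moved with 1 library. Without Trpv1 replicate 4, 3 of 83 members were called higher in the Sst libraries, where 2.28% of the 12434 genes tested in that fit were called higher and 5.07% in either direction. Among the 3 were Rps3 (log2 fold change 1.197, edgeR adjusted p = 0.0328) and Rpl10a (1.16, edgeR adjusted p = 0.0477). The median log2 fold change was then 0.30 over the members, with 63 of 83 above 0, and 0.05 over all genes, with 52.4% above 0. Without Trpv1 replicate 1 or Trpv1 replicate 2 the median was 0.16 or 0.04, and with a term for Xist 0.01, each with 0 members called by edgeR. At an unadjusted p under 0.05 these 3 fits had 5, 4 and 2 members, against 19.2%, 18.6% and 17.2% of all genes. Across the 21 other settings the adjusted p lay between 0.0328 and 0.399 for Rps3 and between 0.0477 and 0.528 for Rpl10a. Pituitary hormone genes, of which 3 of 7 were tested and 0 called, held 0% of the counts in Trpv1 replicate 4 and 0.135% to 0.189% in the other Trpv1 libraries. In the Sst libraries they held from 8.23e-06% to 0.0464%, the highest in Sst replicate 2, and Lhb was at 0 in all 8. Their part in these results was not tested.

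Paralogs and retrotransposed copies were mostly scarce. Rps4l, a processed copy of the X-linked Rps4x, stood at 2.19, 6.87, 4.17 and 1.45 CPM in Sst replicates 1 to 4 and at 1.03, 0.13, 3.05 and 1.38 CPM in Trpv1 replicates 1 to 4, with overlapping groups (log2 fold change 1.36, SE 0.870, edgeR adjusted p = 0.401). Rps4x itself stood at 94.6 ± 20.8 and 71.6 ± 23.0 CPM (0.39). Rpl22l1, the paralog of the RNA-binding Rpl22, stood at 3.85 ± 2.26 and 7.07 ± 1.40 CPM (−0.91, edgeR adjusted p = 0.505), and Rpl22 at 20.3 ± 8.02 and 19.7 ± 3.28 CPM (0.04). Rps27l, a paralog of Rps27 known as a p53 target, stood at 4.89 ± 1.10 and 6.31 ± 3.51 CPM (−0.38), and Rps27 at 33.8 ± 9.38 and 43.1 ± 0.937 CPM (−0.35). Rpl36al was the exception among the copies, with 52.4 ± 16.6 and 36.6 ± 21.9 CPM (0.52), near its X-linked relative Rpl36a at 50.6 ± 27.8 and 47.1 ± 29.0 CPM (0.08). Rpl7, the relative of Rpl7l1, stood at 20.6 ± 6.01 and 16.0 ± 9.43 CPM (0.32). Of these 10 genes, 0 were called by edgeR, DESeq2 or voom, and Rpl7l1 alone had an unadjusted p under 0.05 in edgeR. Over all genes the 3 methods called 6.35%, 8.01% and 5.11%, and 20.5% had an unadjusted p under 0.05 in edgeR. With 10 genes, 0 calls cannot be told apart from such shares.

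How far such copies can be told apart depends on the sequence, which is shown for 4 pairs as 90-base stretches (GRCm38, 5′ to 3′ on the strand of the gene). The bases that differ within a pair are in capitals. The gene printed first gives the coding sequence and the numbering. Beside it stands the stretch of the copy's transcript at the best ungapped match to that whole coding sequence. Rpl37rt matches Rpl37 at 90 of 90 bases here and at 99.7% of the coding sequence of Rpl37 (coding bases 145 to 234).
Rpl37: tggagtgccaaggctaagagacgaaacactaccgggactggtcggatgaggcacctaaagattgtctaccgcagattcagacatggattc
Rpl37rt: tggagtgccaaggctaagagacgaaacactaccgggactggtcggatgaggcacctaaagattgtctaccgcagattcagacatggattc
Rps4l matches Rps4x at 72 of 90 bases (coding bases 394 to 483).
Rps4x: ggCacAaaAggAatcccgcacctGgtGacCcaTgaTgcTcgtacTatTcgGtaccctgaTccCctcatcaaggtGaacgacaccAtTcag
Rps4l: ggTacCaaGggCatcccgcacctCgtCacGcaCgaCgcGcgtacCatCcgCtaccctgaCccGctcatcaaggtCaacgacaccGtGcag
Rps27l matches Rps27 at 68 of 90 bases (coding bases 127 to 216).
Rps27: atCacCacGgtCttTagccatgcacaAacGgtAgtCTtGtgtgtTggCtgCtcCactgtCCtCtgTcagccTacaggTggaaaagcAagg
Rps27l: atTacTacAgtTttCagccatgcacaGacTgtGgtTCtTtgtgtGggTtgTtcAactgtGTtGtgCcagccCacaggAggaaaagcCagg
Rpl22l1 matches Rpl22 at 68 of 90 bases (coding bases 193 to 282).
Rpl22: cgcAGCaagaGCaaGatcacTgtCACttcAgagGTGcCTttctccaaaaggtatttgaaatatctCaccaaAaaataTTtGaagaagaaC
Rpl22l1: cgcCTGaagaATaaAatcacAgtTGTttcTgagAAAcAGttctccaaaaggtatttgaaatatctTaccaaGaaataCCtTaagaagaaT
In the last 3 pairs differing bases are spread along the stretch, whereas a read from within the Rpl37 stretch matches Rpl37rt equally well. The counts of Rpl37rt, 2.34 ± 0.467 and 2.75 ± 1.17 CPM, beside 28.3 ± 6.42 and 29.6 ± 7.70 CPM for Rpl37, are therefore uncertain. Rps27 and Rps27rt are identical over their whole coding sequence (100%), and Rps27rt held 24 counts in all 8 libraries together.

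Many members share sequence with other annotated genes, among them pseudogenes, coding copies and genes that overlap them. The median member had 38.8% of the 50-base stretches of its transcript in no other annotated gene, with the lowest value, 1.35%, for Rps27, and 28 members had less than 25%. For Rps3 the value was 97.04% and for Rpl10a 11.9%. The 28 members with under 25% stood at a median of 52.7 CPM per kb and the 11 with 75% or more at 25.7 CPM per kb, with median log2 fold changes of 0.16 and 0.04. Across the 83 members, uniqueness and log2 level per kb had a Pearson r of −0.17 (Spearman rho −0.18), and uniqueness and log2 fold change −0.05 (rho −0.03), given as a description of genes that share libraries. The 252 rows named as ribosomal protein pseudogenes, 131 of them with counts, held 228 to 630 counts per library, 1.01% to 1.61% of the members' counts. Adding each row whose parent symbol is a member to that parent gave 0 members called and a median of 0.07. Genes named otherwise that share stretches with members were neither in these rows nor added. Examples are Gm10288, which shares most with Rpl11, and Gm12918, which shares most with Rpl13. The counting of reads with several matches is not stated in the sources used here.

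Overlapping annotation concerned several of the scarcest members and some abundant ones. In 9 members over 20% of the exon bases lie in exons of another gene. The share is taken over all other genes, and the gene with the largest overlap is named in brackets. It was 91.6% for Rps10 (the readthrough gene RPS10-NUDT3), 71.5% for Rpl24 (Gm28037) and 68.3% for Rpl35 (Wdr38). For Rpl36al it was 63.1% (Gm49383), for Rpl13a 59.3% (Gm45713) and for Rpl23a 55.4% (Tlcd1). Lower shares were those of Rpl5 at 46.6% (Fam69a), Rpl30 at 34.7% (D730044K07Rik) and Rpl22l1 at 28.8% (Gm33051). Their counts are uncertain for that reason. Mean levels over all libraries ran from 1.79 CPM for Rpl24 and 3.16 CPM for Rpl23a to 65.3 CPM for Rpl13a and 104.9 CPM for Rpl5. By mean CPM Rpl24, Rpl23a, Rpl22l1, Rpl35 and Rps10 ranked 83, 80, 79, 75 and 71 of the 83 members. Rpl30, Rpl36al, Rpl13a and Rpl5 ranked 37, 33, 13 and 3. The groups of libraries overlapped for all 9 genes, with log2 fold changes from −0.91 (Rpl22l1) to 0.52 (Rpl36al). Of all genes 11.1% had no overlap, a share from which 9 genes cannot be told apart. Rpl37rt and Rps4l are annotated as transcribed processed pseudogenes and the other 81 members as protein coding.

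**Figure D4:**
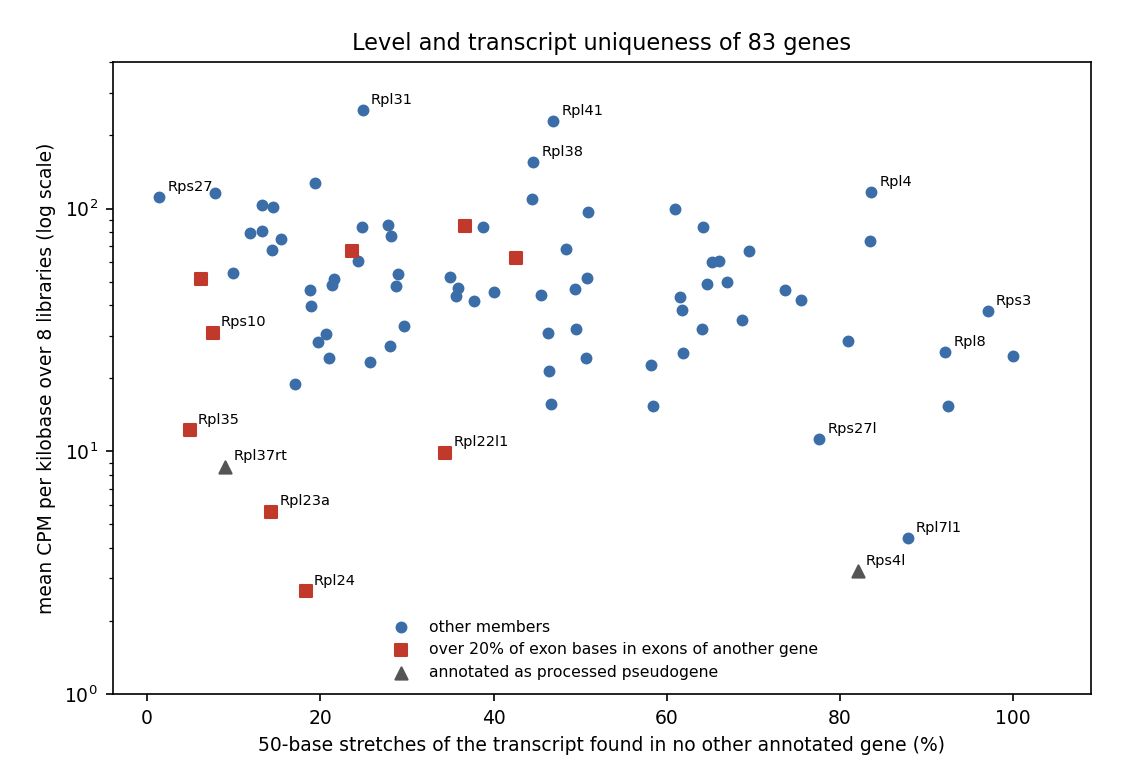
Mean CPM per kb over the 8 libraries (log axis) against the share of 50-base stretches of the transcript found in no other annotated gene, for the 83 members. Squares mark the 9 members with over 20% of exon bases in another gene's exons and triangles the 2 annotated as processed pseudogenes. The members below 10 CPM per kb are Rpl24, Rps4l, Rpl7l1, Rpl23a, Rpl37rt and Rpl22l1.

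The 9 names left out held few counts or none. Rpl3l, Rpl10l, Rpl39l and Rps12l1 held 0 counts in all 8 libraries, which allows up to 3 counts in each; the first 3 are tissue-restricted paralogs, of muscle and of testis. Rps12l2 held 1 count, Rps3a2 11, Rps27rt 24 and Rps3a3 27 over all libraries. Rps19bp1, with 94 counts, matched by name only, since its product binds Rps19 and is not part of the ribosome. At the edge of the rule, the library with the fourth highest count held 8 counts for Rps19bp1, just outside, and 16 for Rpl24, just inside. Of ribosomal proteins named otherwise, Fau stood at 30.4 ± 5.08 and 32.6 ± 11.8 CPM and Gnb2l1, the gene of Rack1, at 24.8 ± 5.15 and 26.5 ± 13.6 CPM (log2 fold change −0.10 each).

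Genes of the wider translation machinery gave few calls at the adjusted threshold. Of 51 tested ribosome assembly factors 1 was called, against the 6.35% of all genes. This was Rrp1, a nucleolar protein of large-subunit assembly, at 155 ± 29.4 and 76.1 ± 19.98 CPM (SD, n = 4 each; log2 fold change 1.02, SE 0.267, edgeR adjusted p = 0.0217), with groups that did not overlap. The call of Rrp1 ended without Sst replicate 3, Trpv1 replicate 2 or Trpv1 replicate 3, with a block for the replicate number, with Xist presence as a term, and when the 2 libraries lacking Xist were dropped. Of 9 elongation factors, 33 initiation factors, 16 nascent chain factors, 12 genes of RNA polymerase I, 24 of the mTOR pathway with Myc, and 74 mitochondrial ribosomal proteins, edgeR called 0. At an unadjusted p under 0.05, where 20.5% of all genes stood, edgeR had 11 of the 51 assembly factors (21.6%), 2 elongation factors (22.2%), 5 genes of the mTOR list (20.8%), 3 nascent chain factors (18.8%) and 2 genes of RNA polymerase I (16.7%). It had 9 of the 74 mitochondrial ribosomal proteins and 1 initiation factor (3.03%), beside the 6.02% of the cytosolic ribosomal proteins. Of the 6 lists without an edgeR call, DESeq2 called 0 genes and voom called 1, Ssr3.

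The medians of these lists lay on both sides of 0. They were −0.05 for elongation factors, 0.06 for initiation factors, −0.20 for nascent chain factors, 0.16 for assembly factors, 0.30 for RNA polymerase I and 0.24 for the mTOR list. Eef1a1, which brings aminoacyl-tRNA to the ribosome, stood at 404 ± 99.6 and 511 ± 127 CPM (−0.34), and its neuronal paralog Eef1a2 at 145 ± 31.3 and 87.7 ± 50.02 CPM (0.71, edgeR adjusted p = 0.202). Eef2, which moves the ribosome along the mRNA, stood at 410 ± 94.9 and 286 ± 107 CPM (0.51). Without Trpv1 replicate 4 Eef1a2 was called higher in the Sst libraries, together with Rrp1. Eif4g2, Ssr3, Rrn3 and Deptor, the most abundant tested genes of their lists, had log2 fold changes of 0.05, −0.71, 0.52 and −0.50. Mitochondrial ribosomal proteins, of which Mrps5 was the most abundant, had a median of 0.21 and a wider spread (25th to 75th percentile −0.32 to 0.86) and a median SE of 0.67, against 0.40 for the cytosolic ones.

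**Figure D5:**
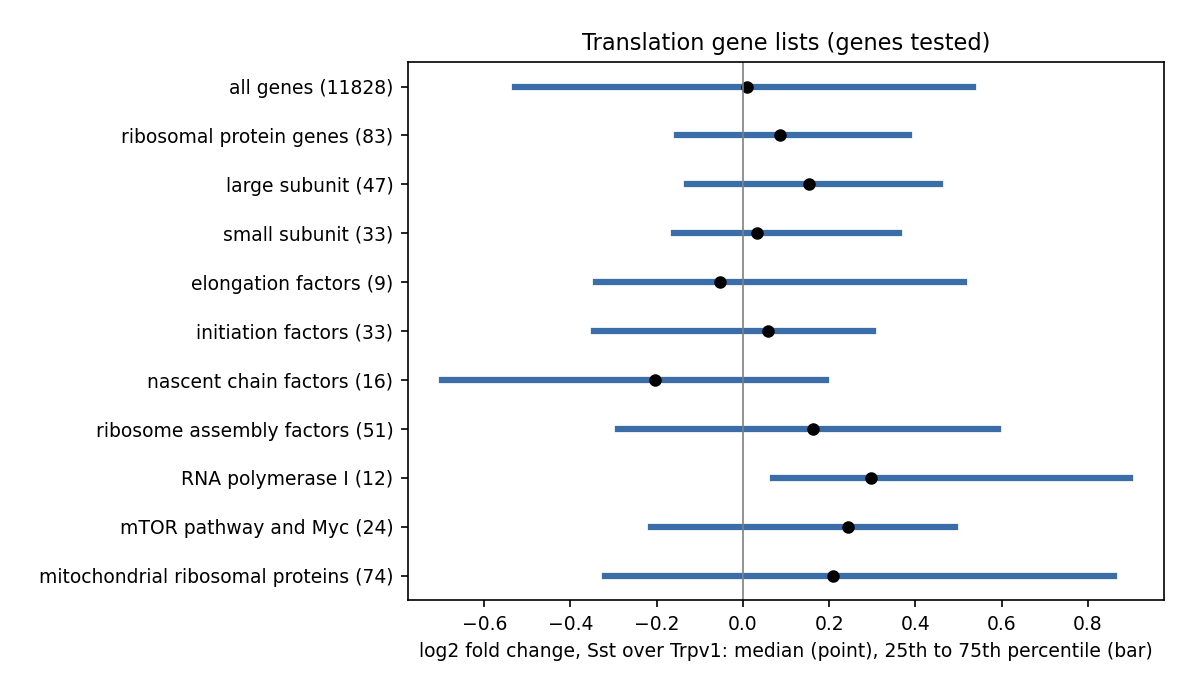
Log2 fold change, Sst over Trpv1 libraries, in lists of translation genes: median (point) and 25th to 75th percentile (bar), with the number of genes tested in brackets. The ribosomal protein genes centre on 0.09 with a narrower bar than all genes, whose median is 0.01, and than the mitochondrial ribosomal proteins at 0.21.

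Markers of neuron classes differed between the same libraries. Among 11 large myelinated neuron markers, 10 were higher in the Sst libraries, where the list took 0.148% to 0.328% of counts against 0.0413% to 0.0675%. Among 8 peptidergic nociceptor markers, 7 were lower there, at 0.00392% to 0.0166% against 0.164% to 0.274%. Among 8 markers of NP3 itch neurons 3 were higher in the Sst libraries, Il31ra, Jak1 and Npy2r, and the list took 0.455% to 0.674% against 0.204% to 0.283%. The other NP3 markers, Nppb, Sst, Nts, Osmr and Cysltr2, were not called in either direction. Fibroblast and vascular markers (9 of 12 tested) took 0.0505% to 0.0969% against 0.02635% to 0.0532%, with 1 called, the pericyte gene Rgs5, higher in the Sst libraries at 547 ± 161 and 215 ± 83.8 CPM (SD, n = 4 each). Rgs5 was the most abundant gene of this list in both groups, and the others went both ways. Dcn, Pdgfra, Lum and Col3a1 had log2 fold changes of −0.65, −0.34, −0.23 and −0.23. Flt1, Pecam1, Col1a1 and Col1a2 had 1.27, 0.76, 0.28 and 0.22. Glial markers (13 of 14 tested) took 0.0911% to 0.113% and 0.0835% to 0.163%, with 1 called, S100b, at 192 ± 38.8 and 60.5 ± 15.4 CPM. Dissociation and stress genes (14 tested, 0 called) took 0.0868% to 0.11% and 0.0656% to 0.129%. Immune and blood markers stood at or below 0.00392% in every library, with C1qa at 0. The part of the mixture of neuron classes and of other cells in the ribosomal protein values was not tested.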

How the data were processed

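The authors deposited a table of raw counts per gene symbol with 8 columns, of which 0 were left unused. Per the labels' protocols, RNA from hand-picked neurons was extracted with PicoPure, turned into amplified cDNA by an Ovation kit, and tagmented with Nextera XT. Per the submitters' processing notes, bcl2fastq 2.17, Trimmomatic 0.33 and featureCounts were used with GRCm38. Aligner, annotation, read length, strand setting and multi-mapping rule are not stated in the sources used here. Without strand, reads of a gene and of an antisense partner cannot be told apart.

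All genes passing the edgeR expression filter (minimum count 10) were fitted with edgeR 4.0.16 in R 4.3.3: TMM scaling, robust quasi-likelihood F test without legacy dispersions, genotype as sole term, two-sided, Benjamini-Hochberg over 11828 genes, threshold 0.05. The SE is the fold change over the root of F, and 95% intervals use the fitted degrees of freedom. The biological coefficient of variation was 69.1%. DESeq2 1.42.0 and limma 3.58.1 (voom) were alternatives. The code was tested on simulated data. Within groups, chi-square per degree of freedom between libraries was at least 40.0, so no library was a duplicate. Reads carried no molecular identifiers, and the floors given for counts of 0 cover counting error only. The labels call the samples independent, and both p-values and 95% intervals rest on the spread between them.

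Positions, lengths and 50-base matches came from GENCODE M21 of GRCm38, where all 83 members were found, and start windows from RefSeq. Genes named were the stalk genes, those among the 6 highest per kilobase that are reported, the extremes of fold change, the paralogs with their parents, called genes of other lists or else their most abundant member. Members near a call, without overlap or with known second roles, and Eef1a2 and Eef2, were added after values were seen. Results for a few genes are not reported here; they stay in the counts and medians. Members and lists were chosen with earlier results of these data known.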

Additional observations from a re-analysis of the deposited data

Results flagged for a closer look

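Among 56 sets of 4 libraries examined, 1 held a library far from the other 3: Rpl7l1 stood at 24.4 CPM in Trpv1 replicate 2 and at 3.31 to 4.56 CPM in the other Trpv1 libraries. The gap took 0.941 of the range, over Dixon's critical value for 4 samples. Chance flags about 1 in 20 such sets. The same library had the lowest depth, 7419027 counts, and the lowest median deviation of the ribosomal protein genes (−0.32), whereas Rpl7l1 was high there. Without Trpv1 replicate 2 the log2 fold change of Rpl7l1 was −0.80 (edgeR adjusted p = 0.718), from −1.92 with all libraries.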

How the results depend on the processing

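The count of ribosomal protein genes called was 0 in both directions under 20 of the 21 alternatives, the exception being the fit without Trpv1 replicate 4. Over the 8 fits that leave out 1 library, members called higher ranged from 0 to 3, all genes called from 452 to 747, genes of the translation lists called higher from 0 to 2, and called lower from 0 to 1. Over all genes, 435 were called with a term for Xist, 305 among libraries with Xist and 493 with legacy dispersions, an alternative chosen after seeing the data; the cause was not tested. List genes called higher numbered 2 with no filter and 0 with the replicate block, the Xist term or the Xist libraries, and voom called 1 lower. Of 522 single-gene values, 502 kept direction and call, 2 passed the threshold (those of Rps3 and Rpl10a) and 18 changed sign, to values from −0.28 to 0.095.

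Sign changes apart from left-out libraries were −0.28 for Rpl36a with voom, and for Rplp2 −0.049 with the Xist term and −0.024 among libraries with Xist. Leaving out 1 library at a time moved the log2 fold change from −0.33 to 0.088 for Rplp1, −0.43 to 0.091 for Rpl41, −0.58 to 0.076 for Rps27l, −0.19 to 0.26 for Rpl22, −0.27 to 0.58 for Rpl36a, −0.23 to 0.095 for Rpl37, and −0.42 to 0.057 for Rpl37rt.

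Replicate numbers did not pair the samples: same-numbered libraries had correlations of deviations of 0.01, 0.03, −0.03 and −0.02, and 2 of 8 libraries correlated best with their own number. With the replicate block 572 genes and 0 members were called, and the members' median log2 fold change was 0.10.

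The largest SE among the members was 0.912, for the scarce paralog Rpl7l1. Relative to its mean, its CPM also varied most between libraries in both groups, and the part of depth was not tested. With 4 libraries a group and a median SE of 0.40, the 95% intervals of 55 members reach past 2-fold in at least 1 direction.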

Other observations

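Of the pseudogene rows, Rpl31-ps5 held 153 counts in Sst replicate 4 and 0 in the other 7 libraries, and Rps16-ps2 held 79 counts in Sst replicate 4 and 5 to 21 elsewhere. Rpl10a-ps1, the row with the most counts, 315 in all, held 39, 46, 77 and 52 counts in Sst replicates 1 to 4 and 27, 13, 28 and 33 in Trpv1 replicates 1 to 4. Its parent Rpl10a was also higher in every Sst library than in any Trpv1 library, and no test was made on these rows.

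Between libraries of different genotypes, the correlation of log2 CPM over the 83 members (0.70 to 0.922 in 16 pairs) reached as high as within the Sst libraries (0.867 to 0.922) and spanned that within the Trpv1 libraries (0.81 to 0.898). Genes are not independent replicates, so these values describe the libraries only.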
